A study of Homo sapiens with 12 samples.

Results

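EW8 is an established Ewing sarcoma cell line, and the 6 libraries described here compare its EW8-RRM1-KO derivative at 0 h with the same cells 48 h after doxycycline was taken away. The samples were chosen by line and time, 3 libraries labelled 0 h and 3 labelled 48 h of the 12 in the series, and the other 6 come from TC71, a second Ewing sarcoma line. In all of these cells the endogenous RRM1 gene was disrupted with CRISPR/Cas9 and RRM1 protein came from a codon-optimized transgene in the Tet-One system, which is expressed only with doxycycline. The knockout lines were cloned from single cells, and how many clones the libraries come from is not given in the sources used here. Cells were grown in DMEM with 10% FBS. Cells at 0 h still had doxycycline, and none of the libraries comes from cells with intact RRM1 that lost doxycycline, so the loss of the transgene, the removal of the drug and the time in culture cannot be told apart. Nothing says that the 3 libraries of a group came from separate cultures, so p-values measure the spread between libraries, which may be technical.

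RRM1 is the large subunit of ribonucleotide reductase, the enzyme that turns ribonucleotides into the deoxyribonucleotides that DNA synthesis needs. Its partner subunit is RRM2 or, in resting and damaged cells, RRM2B. When deoxyribonucleotides run short, replication forks stall and checkpoint kinases are activated, and cells under such stress are known to change transcription widely. Ewing sarcoma is a tumor of bone and soft tissue of the young, driven in most cases by the EWS-FLI1 fusion, a transcription factor.

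Counts on genes came to between 18684017 and 35698991 per library at 0 h and between 18468485 and 20264094 at 48 h. Genes encoded by mitochondrial DNA held 3.80% to 4.09% of the counts at 0 h against 3.05% to 3.54% at 48 h. Counts were compared with the quasi-likelihood test of edgeR, and levels are given as CPM, the counts of a gene per 1000000 counted reads after TMM scaling. Calls of upregulated and downregulated genes needed a Benjamini-Hochberg adjusted p under 0.05 together with a change of more than 2-fold. Of 16515 genes tested, 2294 (13.9%) were upregulated and 554 (3.35%) downregulated, and with libraries scaled to total counts the counts were 2661 and 345. The adjusted p alone was passed by 6103 genes that were higher at 48 h (37.0%) and 5226 that were lower (31.6%), a split of 53.9% to the higher side that became 64.1% with total counts. RNA was taken from whole cultures, so fewer cells of a kind and less RNA per cell cannot be told apart.

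The targeted gene was read first as a check on the labels. RRM1 had 214, 166 and 317 counts in the 0 h libraries against 1201, 1449 and 1514 at 48 h, or 9.37, 9.51 and 9.67 CPM against 63.9, 72.6 and 74.1 CPM. Its RNA was thus higher in every 48 h library (log2 fold change 2.88, standard error 0.07, adjusted p = 3.37e-27). The transgene is codon optimized, so counts on the gene need not follow the transgene's RNA, and how many transgene reads were counted there was not tested. RRM2 had 577, 547 and 576 CPM at 0 h and 660, 703 and 657 CPM at 48 h, and its log2 fold change was 0.25 (standard error 0.04, adjusted p = 3.72e-07), while that of RRM2B was also 0.25 (standard error 0.06, adjusted p = 2.20e-04). Neither passed the fold threshold.

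The cells carried the RNA of Ewing sarcoma cells at both times. Of 29 genes listed as fusion partners or Ewing sarcoma markers, 28 were tested, with a median log2 fold change of 0.11 against 0.03 over all genes. Of these, 2 (7.14%) were upregulated, 1 (3.57%) was downregulated and 25 were not called, beside 13.9% and 3.35% of all genes. By adjusted p alone 15 were higher and 9 lower, beside 37.0% and 31.6% of all genes. CD99, the surface protein used in diagnosis, averaged 334 CPM at 0 h and 244 CPM at 48 h, and NKX2-2, a homeobox target of the fusion, 8.34 and 12.7 CPM. FLI1 itself, which can carry reads from the fusion, averaged 115 and 70.2 CPM (log2 fold change -0.72, standard error 0.05, adjusted p = 6.06e-16), short of the fold threshold. LOXHD1, which had 60, 33 and 88 counts at 0 h against 219, 296 and 309 after 48 h, and IGF1 (log2 fold change 1.28) were the 2 called upregulated. BCL11B (log2 fold change -1.11) was the 1 called downregulated, though with total counts it was inside 2-fold at -0.98.

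Few markers of epithelial, haematopoietic and endothelial cells had rows, while 7 of 10 fibroblast markers did. Of 10 epithelial markers 3 had rows in the table used here, with summed levels of 0.243 to 0.448 CPM of total counts at 0 h and 2.62 to 3.21 at 48 h, when ESRP1 supplied most of it. Of 10 haematopoietic markers 4 had rows, summing to 3.0 to 4.37 and 9.99 to 12.4 CPM. PTPRC, which marks leukocytes, stayed at 5 counts or fewer in every library, while CSF1R had 10, 6 and 11 counts at 0 h against 85, 76 and 87 after 48 h. Of 10 endothelial markers 4 had rows, summing to 8.55 to 8.88 and 17.4 to 19.7 CPM, with CDH5 at 3 counts or fewer throughout. CLDN5 was upregulated, from a mean of 2.80 CPM to 10.1 CPM (log2 fold change 1.85), while ESAM and EMCN were not called. The 7 fibroblast markers with rows, of 10 listed, summed to 170 to 176 CPM at 0 h and 280 to 289 at 48 h. COL3A1 averaged 129 and 151 CPM (log2 fold change 0.22), and COL1A1, FAP, PDGFRB and THY1, 4 of the 7 (57.1%), were upregulated, beside 13.9% of all genes. The part of such markers in the results was not tested.

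Most genes that rose were weakly expressed before doxycycline was removed. Upregulated genes had a median of 0.877 CPM at 0 h, downregulated genes 1.87 CPM, and all genes 15.2 CPM. Upregulated genes took 2.04% ± 0.00966 (SD, n = 3) of all counts at 0 h against 6.46% ± 0.139 (SD, n = 3) at 48 h, while the share of downregulated genes went from 3.75% ± 0.0579 to 1.84% ± 0.0214 (SD, n = 3 each). Rises were also steeper than falls. A log2 fold change above 2 was reached by 739 upregulated genes and one above 3 by 283, whereas 24 downregulated genes lay below -2. At the top of the range, 101 genes averaged 1000 CPM or more at 0 h and 68 at 48 h.

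**Figure D1:**
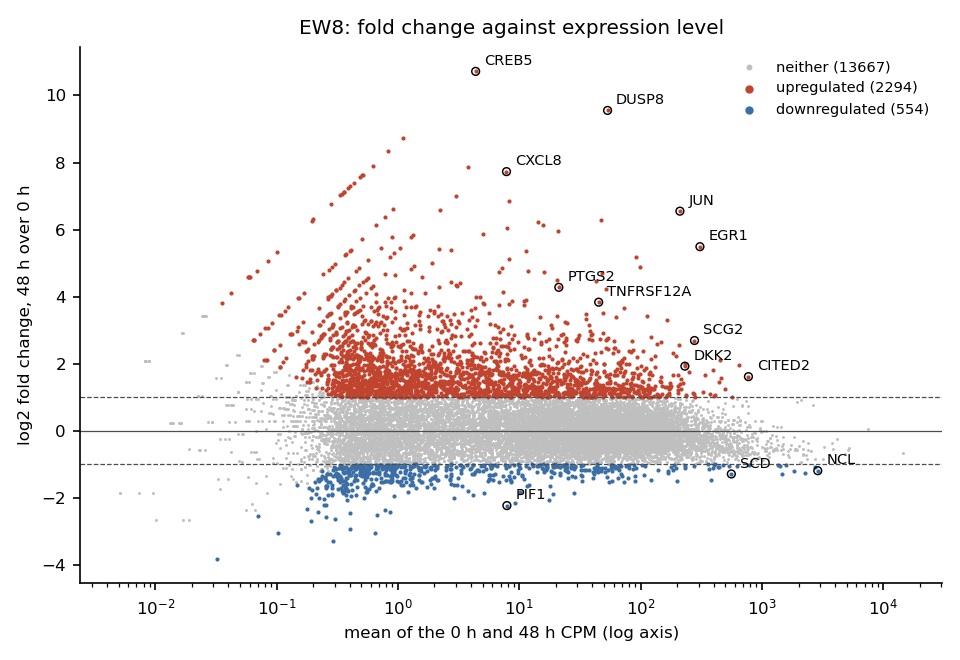
Each point is 1 of 16515 genes in EW8, with the mean of its 0 h and 48 h CPM on a log axis against its fitted log2 fold change, where dashed lines mark a 2-fold change. The 2294 upregulated genes (red) lie mostly at low levels and reach farther from 0 than the 554 downregulated genes (blue), and the fitted values of genes at 0 counts in 1 group, such as CREB5, depend on the prior count.

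A set of genes was switched on from near zero. A gene was counted as switched on when it had 3 counts or fewer in every 0 h library and 20 or more in every 48 h library, and 22 genes met this, of which 19 code for protein, 2 are long noncoding RNAs and 1 is a pseudogene. No gene met the same rule in the other direction. With 10 counts or fewer allowed in the low group, 107 genes were switched on and 7 turned off. Without 0 h replicate 3, the deepest library, 37 genes counted as switched on, and without 48 h replicate 2 there was 1 gene turned off. The limits are in counts, so they carry counting error, and a gene at 3 counts in such libraries lies at 0.172 CPM or less at 0 h.

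Promoters of 3 of these genes are shown because they hold TGANTCA, the sequence that AP-1 dimers of JUN and FOS proteins are known to bind. TGACGTCA, which CREB and ATF family proteins bind, was looked for as well. CXCL8, CREB5 and CD36 are 3 of the 4 genes highest at 48 h, and the window of the other, KRTAP4-7, held neither motif. JUN and FOS RNA had the largest rises among genes with at least 20 counts in the lower group. Windows run from 250 bases before to 50 after each start in RefSeq on GRCh38.p14, are written 5′ to 3′ on the strand of the gene, and carry the motif in capitals. In CXCL8 (chr4:73740319-73740618, + strand) the motif begins 137 bases before the start, in CREB5 (chr7:28685883-28686182, + strand) 44 bases and in CD36 (chr7:80645999-80646298, + strand) 124 bases before it.
CXCL8: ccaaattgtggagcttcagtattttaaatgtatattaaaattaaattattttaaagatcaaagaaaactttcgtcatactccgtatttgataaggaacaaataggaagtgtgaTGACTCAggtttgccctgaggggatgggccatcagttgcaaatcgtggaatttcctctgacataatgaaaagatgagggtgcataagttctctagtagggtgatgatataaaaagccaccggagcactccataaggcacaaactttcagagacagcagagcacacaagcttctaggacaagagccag
CREB5: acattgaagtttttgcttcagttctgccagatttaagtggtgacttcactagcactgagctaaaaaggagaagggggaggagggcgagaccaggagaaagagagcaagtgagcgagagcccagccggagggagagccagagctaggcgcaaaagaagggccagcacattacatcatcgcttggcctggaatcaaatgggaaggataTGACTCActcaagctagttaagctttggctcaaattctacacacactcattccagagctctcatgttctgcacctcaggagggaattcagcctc
CD36: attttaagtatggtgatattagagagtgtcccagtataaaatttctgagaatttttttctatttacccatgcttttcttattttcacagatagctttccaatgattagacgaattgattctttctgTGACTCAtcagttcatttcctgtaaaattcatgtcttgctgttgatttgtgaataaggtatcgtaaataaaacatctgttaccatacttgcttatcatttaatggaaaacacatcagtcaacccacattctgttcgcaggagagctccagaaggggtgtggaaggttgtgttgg

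The motif is not rare. Of 35116 windows in the table, 7.71% held TGANTCA on either strand and 1.85% held TGACGTCA, both motifs read the same on both strands, and in no window did the pair overlap. Of the 22 switched-on genes 17 had a window, and 6 of these 17 (35.3%) held TGANTCA in at least 1 window, against 11.3% of the 1466 upregulated genes with a window, 5.17% of 271 downregulated genes and 6.89% of all 11237 tested genes with one. Per window the values were 21.4% of 28, 8.21% of 2131, 4.04% of 371 and 5.17% of 16278, beside 7.71% of all 35116 windows. Of all 27305 genes with a window, tested or not, 9.37% held TGANTCA. CREB5 has 3 windows and CD36 has 6, and in each 1 window held the motif. TGACGTCA was in the windows of 5.12% of upregulated genes, 0.738% of downregulated genes and 3.82% of all tested genes, and in 0 of the 17 switched-on genes with a window. The motifs were chosen with the rise of JUN and FOS known, genes with more windows have more chances to hold one, and these shares are descriptions with no test.

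CXCL8 (chr4:73740519-73743716 in hg38), the neutrophil-attracting chemokine also called interleukin 8, had 1, 2 and 2 counts at 0 h against 287, 336 and 301 after 48 h. Its ratio of 48 h to 0 h was 249 in counts scaled to library size, with an exact 95% counting interval of 106 to 769. CREB5 (chr7:28299321-28825894), a basic leucine zipper factor that pairs with JUN, had no count in any 0 h library and 162, 180 and 175 at 48 h, at least 50.8-fold higher when 3 counts per library are taken as the floor. CD36 (chr7:80369575-80679277), a scavenger receptor for fatty acids and lipoproteins, had 0, 2 and 1 counts at 0 h against 117, 109 and 128 after 48 h. In each of the 3 genes the 48 h libraries lay above the 0 h libraries, as the rule for switched-on genes required.

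KRTAP4-7 and KRTAP4-9, hair keratin-associated proteins from 1 cluster of near-identical genes on chromosome 17, had 48 h counts of 125, 164 and 158 and of 83, 95 and 84, and reads could have been split between such copies. The other switched-on genes were lower. GDF15, a stress-induced hormone of the TGF-beta superfamily, was at 0 in all 0 h libraries and had 44, 36 and 51 counts at 48 h, at least 12.9-fold higher. KRT80, an epithelial keratin, went from 0 in every library to 28, 20 and 25 counts. NPPC, the precursor of C-type natriuretic peptide, had 0, 0 and 3 counts and then 44, 52 and 53. PDCD1, which encodes the T cell receptor PD-1, had 2 counts in each 0 h library and 40, 60 and 57 at 48 h. PLN, the inhibitor of the cardiac calcium pump, had 1, 0 and 2 counts and then 47, 56 and 53, and ABCB1, the drug efflux pump P-glycoprotein, had 1 in each 0 h library and 31, 36 and 40 at 48 h. ESRP1, an epithelial splicing regulator, reached 42 to 53 counts. The 10 others, MYO7B, TNS4, SPOCD1, EVA1A, TMEM88, LINC02261, BTG2-DT, MUC2, KLHDC7B and MRPL35P2, reached between 20 and 50 counts.

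**Figure D2:**
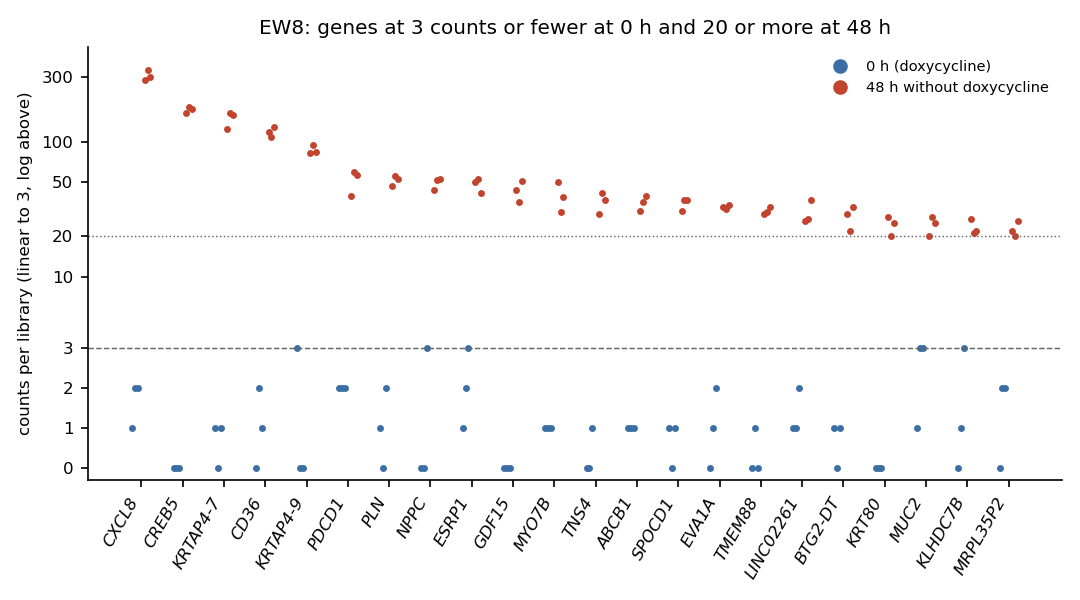
Counts per library of the 22 genes at 3 counts or fewer in all 3 EW8 libraries at 0 h (blue) and at 20 or more in all 3 at 48 h (red), on an axis that is linear to 3 and logarithmic above, with the limits as dashed and dotted lines. CXCL8 leads with 287 to 336 counts at 48 h, and CREB5, GDF15 and KRT80 have no count at 0 h.

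A further 28 upregulated genes rose steeply from a few counts, with a 0 h mean under 20 counts but above the limit of 3 in some library, and 100 or more counts in every 48 h library. These genes were chosen after their values were seen. DUSP8 (chr11:1554051-1572271), a phosphatase that removes activating phosphates from JNK and p38 kinases, had 2, 2 and 6 counts at 0 h against 1992, 1958 and 2368 after 48 h (log2 fold change 9.55, standard error 0.16, adjusted p = 1.88e-28). PLAU, the plasminogen activator urokinase, had 3, 2 and 7 counts and then 172, 201 and 212. In both genes every 48 h library had more counts than every 0 h library, as the limits that chose them required. GDNF, a ligand of the RET receptor complex, had 11, 6 and 19 counts and then 263, 260 and 255. OASL, an interferon-induced protein related to the oligoadenylate synthetases, had 13, 8 and 18 counts and then 400, 379 and 541. BBC3, the cell death protein PUMA, had 8, 14 and 20 counts and then 113, 105 and 116.

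Receptors moved mainly upward. Of 302 tested receptor genes 79 (26.2%) were upregulated and 8 downregulated, beside 13.9% and 3.35% of all genes, and the other 215 were not called. The list held 607 symbols, of which 302 passed the filter on low counts, and 10 of the 79 had 3 counts or fewer in every 0 h library, so that they passed it through their 48 h counts. By adjusted p alone 158 were higher and 59 lower, and the median log2 fold change was 0.35, against 0.03 over all genes. Receptors had a median level of 10.1 CPM. Of protein-coding genes 23.2% at 1 to under 10 CPM and 7.74% at 10 to under 100 CPM were upregulated. Shares upregulated ran from 2 of 23 receptors for TGF-beta, GDNF, Notch, WNT and Hedgehog ligands (8.70%) and 2 of 15 axon guidance receptors (13.3%) to 15 of 48 receptors of cytokines and the TNF superfamily (31.2%) and 7 of 20 innate immune and scavenger receptors (35%). G protein-coupled receptors made up the largest group, with 35 of 118 upregulated and 3 downregulated.

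TNFRSF12A, the receptor of the cytokine TWEAK, had the largest rise among cytokine and TNF receptors with 20 counts or more in the lower group. It had 6.09, 5.84 and 5.80 CPM at 0 h and 86.2, 80.9 and 85.6 CPM at 48 h (log2 fold change 3.83, standard error 0.07, adjusted p = 4.30e-30). The groups did not overlap, as was so for 71.1% of all genes tested and was required of genes named for the size of their fold change. FAS, the death receptor of FAS ligand, had 7.58, 7.28 and 7.05 CPM at 0 h and 25.4, 24.0 and 26.6 CPM at 48 h (log2 fold change 1.8, standard error 0.08). IL2RG, the chain shared by the receptors of interleukin 2 and related cytokines, rose from 0.921 ± 0.112 to 4.21 ± 0.522 CPM (SD, n = 3 each), and IL2RB, a second chain of that receptor, had 12, 13 and 21 counts and then 112, 104 and 103.

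GPR3, a receptor that signals to adenylyl cyclase without a known need of ligand, had 0.832, 1.20 and 1.31 CPM at 0 h and 11, 9.17 and 11 CPM at 48 h (log2 fold change 3.19, standard error 0.15, adjusted p = 5.10e-19), the largest rise among G protein-coupled receptors with 20 counts or more in the lower group. All of its 48 h libraries were above all 0 h libraries, as was required of genes named for the size of their fold change. Its promoter (chr1:27392372-27392671, + strand) is shown because it holds both motifs, TGACGTCA beginning 36 bases before the start and TGANTCA beginning 1 base after it.
GPR3: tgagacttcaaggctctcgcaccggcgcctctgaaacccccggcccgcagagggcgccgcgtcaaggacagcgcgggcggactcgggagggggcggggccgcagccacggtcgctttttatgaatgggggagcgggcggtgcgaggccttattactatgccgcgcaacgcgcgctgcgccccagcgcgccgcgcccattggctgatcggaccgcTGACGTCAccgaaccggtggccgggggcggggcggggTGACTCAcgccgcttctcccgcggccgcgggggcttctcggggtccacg

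CELSR3, an adhesion receptor with cadherin repeats, had 8.54, 11.7 and 8.72 CPM at 0 h and 65.7, 63.4 and 74.5 CPM at 48 h (log2 fold change 2.84, standard error 0.09). GRM2, a metabotropic glutamate receptor, rose from 3.61 ± 0.497 to 16.9 ± 0.474 CPM (SD, n = 3 each). The 3 that fell were ADGRL2, a latrophilin (log2 fold change -1.08), GPR85 (log2 fold change -1.05) and PTGDR2, a prostaglandin D2 receptor with 11, 11 and 38 counts and then 3, 7 and 6. ADGRL2 and GPR85 did not keep a 2-fold change when libraries were scaled to total counts, at -0.95 and -0.93, and GPR85 lay between -0.99 and -0.81 without 0 h replicate 3, 48 h replicate 1 or 48 h replicate 3.

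Of 38 receptor tyrosine kinases 9 were upregulated and 0 downregulated, while 22 were higher and 8 lower by adjusted p alone, beside 13.9% and 3.35% of all genes called and 37.0% and 31.6% by adjusted p alone. EPHA2, an ephrin-A receptor, had 19.5, 20.9 and 20.3 CPM at 0 h and 83.5, 77.6 and 80.1 CPM at 48 h (log2 fold change 1.99, standard error 0.06, adjusted p = 2.00e-25). PDGFRB, a receptor of platelet-derived growth factor that also stands among the fibroblast markers, rose from 15.7 ± 1.18 to 38.0 ± 1.77 CPM (SD, n = 3 each). Among innate immune and scavenger receptors, the cytosolic sensors of double-stranded RNA RIGI and IFIH1 rose by log2 fold changes of 1.64 and 1.49, IFIH1 from 9.87 ± 0.433 to 27.7 ± 1.57 CPM (SD, n = 3 each). LRP8, a receptor of reelin and apolipoprotein E, was the 1 that fell, from 57.1, 57.1 and 56.6 CPM to 22.5, 25.1 and 24.8 CPM (log2 fold change -1.24, standard error 0.06, adjusted p = 3.23e-19). Integrins were upregulated in 4 of 19 cases, with ITGB4, the partner of alpha 6 in hemidesmosomes, at a log2 fold change of 1.32. P2RX4, an ATP-gated cation channel, rose from 22.5 ± 0.512 to 53.5 ± 1.59 CPM (SD, n = 3 each), and UNC5C, a netrin receptor, fell from 8.71 ± 0.927 to 3.45 ± 0.132 CPM (SD, n = 3 each).

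Secreted ligands also moved mainly upward. Of 136 tested among 384 listed, 52 (38.2%) were upregulated, 5 (3.68%) downregulated and 79 not called, beside 13.9% and 3.35% of all genes, with a median log2 fold change of 0.64. By adjusted p alone 84 were higher and 20 lower. Ligands had a median level of 3.61 CPM, and at 1 to under 10 CPM 23.2% of protein-coding genes were upregulated and 2.97% downregulated. Of the 52, 6 had 3 counts or fewer in every 0 h library and passed the filter through their 48 h counts. With 1 library left out at a time, between 52 and 56 ligands were upregulated. The count downregulated was 8 without 0 h replicate 1, 9 without 48 h replicate 1 and 8 without 48 h replicate 2. Neuropeptides and peptide hormones were upregulated in 13 of 26 cases and downregulated in 0, growth factors were upregulated in 12 of 30, interleukins and chemokines in 7 of the 10 tested among 100 listed, EGF family ligands in 3 of 5 and TNF superfamily ligands in 3 of 7. Of 29 ligands of axon guidance 8 were upregulated and 3 downregulated.

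SCG2, the secretory granule protein secretogranin II from which secretoneurin is cut, had the highest level of these. It had 74.9, 77.4 and 71.6 CPM at 0 h and 463, 477 and 503 CPM at 48 h (log2 fold change 2.69, standard error 0.05, adjusted p = 3.45e-29). Every 48 h library was several times above every 0 h library, and groups that do not overlap were required of genes named for the size of their fold change. NTS, which encodes neurotensin, rose from 1.83 ± 0.502 to 10.4 ± 1.38 CPM and ADM2, a peptide of the adrenomedullin family, from 9.53 ± 0.892 to 37.3 ± 1.03 CPM (SD, n = 3 each). VGF, another granule protein, had 4, 1 and 4 counts and then 97, 107 and 114.

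DKK2, an antagonist of WNT signaling that binds LRP co-receptors, had 97.4, 91.5 and 99.9 CPM at 0 h and 355, 366 and 379 CPM at 48 h (log2 fold change 1.93, standard error 0.04, adjusted p = 5.73e-28). Its groups did not overlap, as the rule that chose it required. CCN2 and CCN1, matrix-associated proteins also known as CTGF and CYR61, both rose. CCN2 had 1.75, 0.917 and 1.46 CPM at 0 h and 19.9, 21.5 and 22.9 CPM at 48 h (log2 fold change 3.91, standard error 0.13), and CCN1 had a log2 fold change of 2.64. The EGF receptor ligands TGFA and EGF rose from 1.98 ± 0.146 to 7.55 ± 1.22 CPM and from 18.0 ± 0.232 to 46.4 ± 2.85 CPM (SD, n = 3 each), and the third, HBEGF, had 8, 5 and 25 counts and then 65, 83 and 92. BMP2, a bone morphogenetic protein, rose from 11.9 ± 0.882 to 38.8 ± 2.64 CPM, and SEMA3A, a repellent of growing axons, from 17.5 ± 0.724 to 61.1 ± 2.65 CPM (SD, n = 3 each). EFNA4, a ligand of EPHA receptors, and SEMA4G, a transmembrane semaphorin, fell by 1.41 and 1.40 on the log2 scale.

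Transcription factors were called upregulated more often than downregulated. Of 408 tested among 628 listed, 111 (27.2%) were upregulated, 9 (2.21%) downregulated and 288 not called, beside 13.9% and 3.35% of all genes, with a median log2 fold change of 0.43. Of the 111, 4 had 3 counts or fewer in every 0 h library. Shares upregulated by family ran from 20 of 116 homeobox and PAX factors (17.2%) to 17 of 43 basic leucine zipper factors (39.5%) and 14 of 26 EGR, KLF, SP and NR4A factors (53.8%), whose median log2 fold change was 1.58. JUN, FOS, EGR1, DDIT3 and ATF3 were the 5 largest rises with 20 counts or more in the lower group, at log2 fold changes of 4.89 to 6.55. Of 31 nuclear receptors 6 (19.4%) were upregulated and 2 downregulated, with 14 higher and 13 lower by adjusted p alone and a median of -0.01 that became 0.11 with total counts.

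After these, DLX2 had the next largest rise of a transcription factor by the same rule. DLX2, a homeobox factor of forebrain and neural crest, had 2.15, 1.83 and 1.34 CPM at 0 h and 42.0, 37.3 and 38.3 CPM at 48 h (log2 fold change 4.51, standard error 0.12, adjusted p = 3.42e-25). PAX3, a factor of neural crest and muscle precursors, had 25.4, 26.0 and 25.7 CPM at 0 h and 103, 103 and 108 CPM at 48 h (log2 fold change 2.02, standard error 0.05, adjusted p = 8.22e-27). For both genes the 48 h libraries lay above the 0 h libraries, as the rule that chose them required. ISL2, a LIM homeobox factor of motor neurons, rose from 2.19 ± 0.124 to 12.5 ± 0.440 CPM (SD, n = 3 each).

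MXD1, a repressor that dimerizes with MAX, had 5.12, 4.47 and 4.82 CPM at 0 h and 45.7, 41.5 and 46.8 CPM at 48 h (log2 fold change 3.21, standard error 0.08, adjusted p = 7.98e-27), the largest rise of the basic helix-loop-helix list by this rule. TWIST1, a mesenchymal factor, rose from 13.4 ± 0.922 to 51.4 ± 2.22 CPM and AHR, the receptor of dioxin and related ligands, from 8.83 ± 0.394 to 29.2 ± 2.52 CPM (SD, n = 3 each). NR4A1, an orphan nuclear receptor and early response gene, had 5.91, 7.05 and 6.22 CPM at 0 h and 41.4, 43.5 and 40.6 CPM at 48 h. Both GATA2 and GATA3, zinc finger factors known from blood and trophoblast, rose, GATA2 from 30.9 ± 0.659 to 122 ± 5.98 CPM and GATA3 from 2.59 ± 0.439 to 14.1 ± 1.62 CPM (SD, n = 3 each). VDR, the vitamin D receptor, rose by a log2 fold change of 1.59, and NFATC2, a calcium-regulated factor, by 2.31. SOX12, a factor of the SOXC group, had 118, 129 and 126 CPM at 0 h and 60.1, 53.7 and 57.3 CPM at 48 h (log2 fold change -1.13, standard error 0.05), and THRA, a thyroid hormone receptor, fell by 1.11 on the log2 scale but by 0.98 with total counts.

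**Figure D3:**
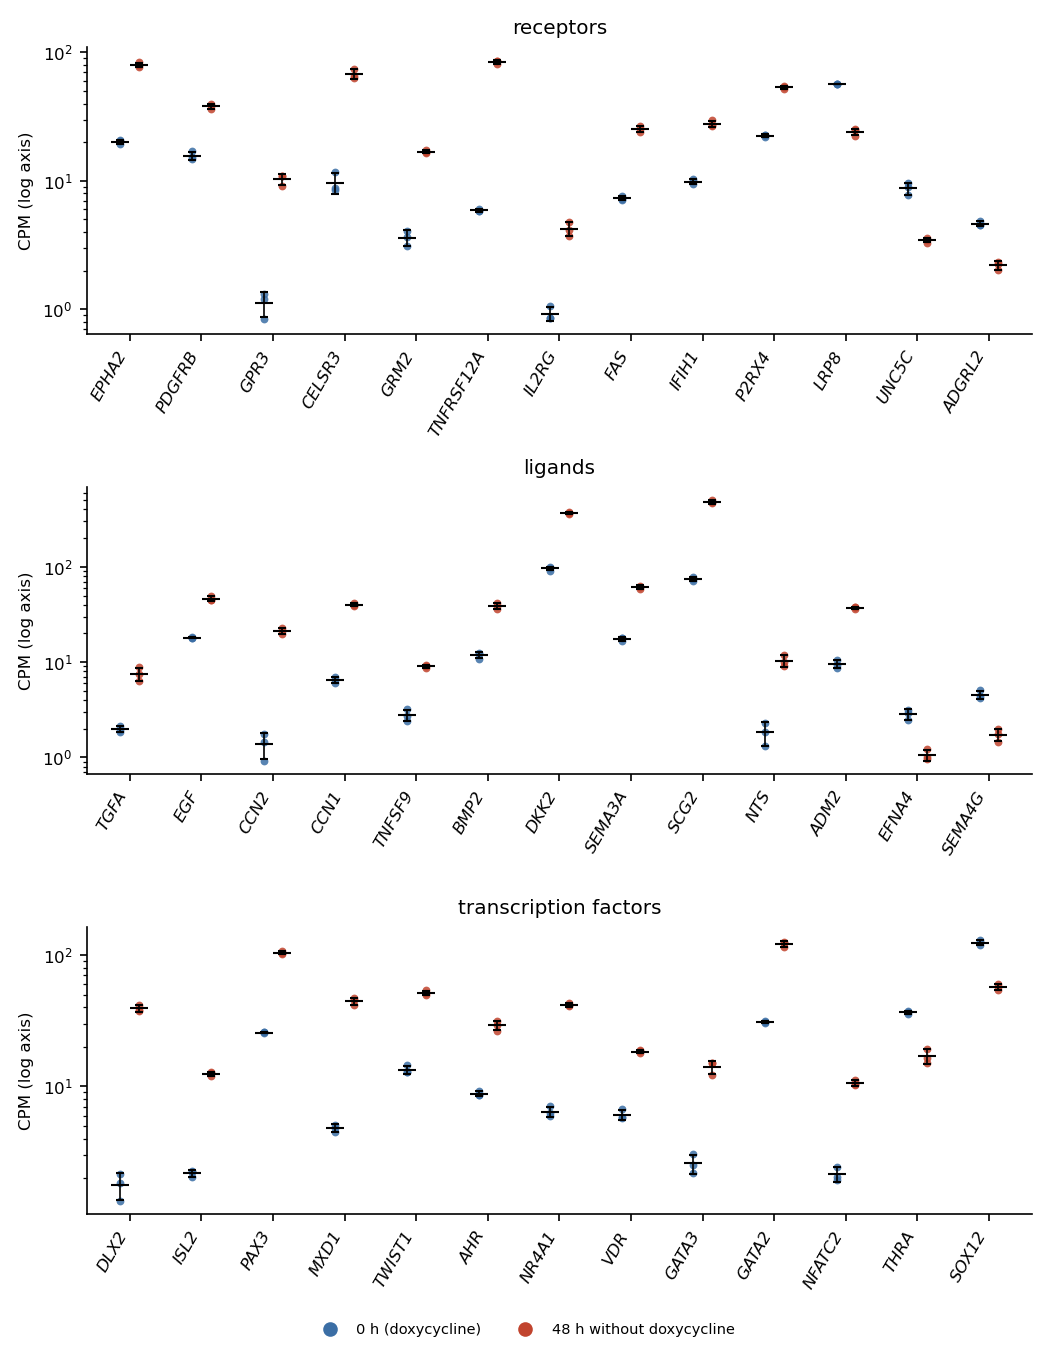
CPM on a log axis of named receptors, ligands and transcription factors in EW8 at 0 h (blue) and 48 h without doxycycline (red), with 1 point per library, a bar at the mean and whiskers for the SD (n = 3). The genes were chosen for groups that do not overlap, and SCG2 at 481 CPM and DKK2 at 367 CPM have the highest means at 48 h, with LRP8, UNC5C, ADGRL2, EFNA4, SEMA4G, THRA and SOX12 lower at 48 h.

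Metabolic genes had few calls, and most members lay below 0. Of 435 tested among 503 listed, 23 (5.29%) were upregulated and 13 (2.99%) downregulated, beside 13.9% and 3.35% of all genes, and 399 were not called. These genes are abundant, with a median of 72.8 CPM over the 6 libraries against 10.1 for receptors, 3.61 for ligands and 17.6 for transcription factors. The share of all genes upregulated differed by level, with 11.8% under 0.1 CPM, 26.0% at 0.1 to under 1 CPM, 21.2% at 1 to under 10 CPM, 8.09% at 10 to under 100 CPM and 3.99% at 100 CPM or more. By adjusted p alone 270 of the 435 were lower at 48 h and 77 higher, against 31.6% and 37.0% of all genes. The median log2 fold change was -0.30, or -0.17 with total counts, and the genes took 10.8% of all counts at 0 h against 8.79% at 48 h. Scaling to total counts raised the median of all genes by 0.13 on the log2 scale, from 0.03 to 0.16, and upper-quartile factors set it at -0.01.

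Subunits of the respiratory chain encoded in the nucleus had negative log2 fold changes in 72 of 77 cases, with a median of -0.37 (-0.25 with total counts). By adjusted p alone 60 of the 77 were lower, beside 31.6% of all genes. The 1 of 77 upregulated, beside 13.9% of all genes, was NDUFA13, with 10, 12 and 10 counts and then 21, 17 and 20. Among the 13 subunits encoded in mitochondrial DNA 12 were negative, with a median of -0.63 (-0.50 with total counts). Both thresholds were passed by 2 of them, beside 3.35% of all genes downregulated. MT-ATP6, a subunit of ATP synthase, had 3739, 3734 and 3656 CPM at 0 h and 1779, 1648 and 1863 CPM at 48 h (log2 fold change -1.07, standard error 0.16, adjusted p = 3.21e-04), and MT-ATP8, whose reading frame overlaps it, fell by 1.09 on the log2 scale. With total counts both were inside 2-fold, at -0.95 and -0.96.

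Genes of cholesterol synthesis and handling were lower as a list, with a median of -0.49, 25 of 32 lower by adjusted p alone, 4 downregulated and 1 upregulated, beside 31.6%, 3.35% and 13.9% of all genes. The 1 that rose was CYP46A1, which turns cholesterol into an oxysterol in the brain, with 0, 3 and 7 counts and then 22, 25 and 32. HMGCS1, which makes HMG-CoA, had 243, 226 and 238 CPM at 0 h and 90.7, 105 and 102 CPM at 48 h (log2 fold change -1.25, standard error 0.06, adjusted p = 1.14e-17). MSMO1, a sterol methyl oxidase, fell from 94.2 ± 3.97 to 35.2 ± 0.844 CPM and INSIG1, the sterol-regulated retention protein of SREBP, from 115 ± 6.78 to 43.1 ± 1.27 CPM (SD, n = 3 each). SQLE fell by 1.09 on the log2 scale, and was not followed with total counts, which raised the median of all genes by 0.13. In HMGCS1, MSMO1 and INSIG1 every 0 h library was above every 48 h library, as was required of genes named for the size of their fold change. SCD, which makes monounsaturated fatty acids, had 799, 781 and 800 CPM at 0 h and 318, 329 and 327 CPM at 48 h (log2 fold change -1.29, standard error 0.04, adjusted p = 7.84e-25).

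Against that direction, PTGS2, the inducible cyclooxygenase of prostaglandin synthesis, had 1.97, 1.83 and 2.29 CPM at 0 h and 39.2, 41.4 and 40.3 CPM at 48 h (log2 fold change 4.28, standard error 0.11, adjusted p = 5.37e-27). It was the largest of 7 upregulated genes in the list of 69 fatty acid and lipid genes, or 10.1% beside 13.9% of all genes. MGLL, a lipase of monoacylglycerols, rose from 2.22 ± 0.197 to 8.22 ± 0.857 CPM (SD, n = 3 each). The amino acid list held 5 upregulated genes (9.62%) and 1 downregulated (1.92%) among 52, beside 13.9% and 3.35% of all genes. SAT1, which acetylates polyamines for breakdown, had 3.42, 3.49 and 4.0 CPM at 0 h and 30.4, 34.9 and 32.3 CPM at 48 h. CHAC1, which degrades glutathione, rose from 10.2 ± 1.57 to 45 ± 1.33 CPM and CTH, which makes cysteine, from 22.6 ± 0.697 to 68.8 ± 3.52 CPM (SD, n = 3 each). MAT2A, which makes S-adenosylmethionine, had 570, 545 and 562 CPM at 0 h and 208, 199 and 204 CPM at 48 h (log2 fold change -1.45, standard error 0.05, adjusted p = 6.40e-18).

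Nucleotide synthesis and salvage, the pathway around ribonucleotide reductase, had 4 of 54 genes upregulated and 2 downregulated, 34 lower by adjusted p alone and a median of -0.23, beside 13.9%, 3.35% and 31.6% of all genes. Beside RRM1, those that rose were the salvage and breakdown enzymes NT5E, CDA and UPP1, all at low counts. UPP1, a uridine phosphorylase, had 4, 0 and 5 counts and then 29, 20 and 22. DHODH, the mitochondrial step of pyrimidine synthesis, fell from 21.5 ± 1.71 to 9.68 ± 0.651 CPM (SD, n = 3 each), and NME2, a nucleoside diphosphate kinase, had 51, 52 and 91 counts and then 17, 15 and 17. Glycolysis and the pentose phosphate pathway had 1 call among 41, HKDC1 with 0, 1 and 0 counts and then 20, 21 and 17, while the list's median was -0.30. The citric acid cycle and glutamine list had 1 call among 34, IDH1, at a log2 fold change of -1.01 that was -0.88 with total counts and -0.99 without 48 h replicate 1 or without 48 h replicate 3. TFRC, the transferrin receptor, fell from 839 ± 33.1 to 402 ± 20.9 CPM (SD, n = 3 each), a log2 fold change of -1.06 that was -0.94 with total counts.

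**Figure D4:**
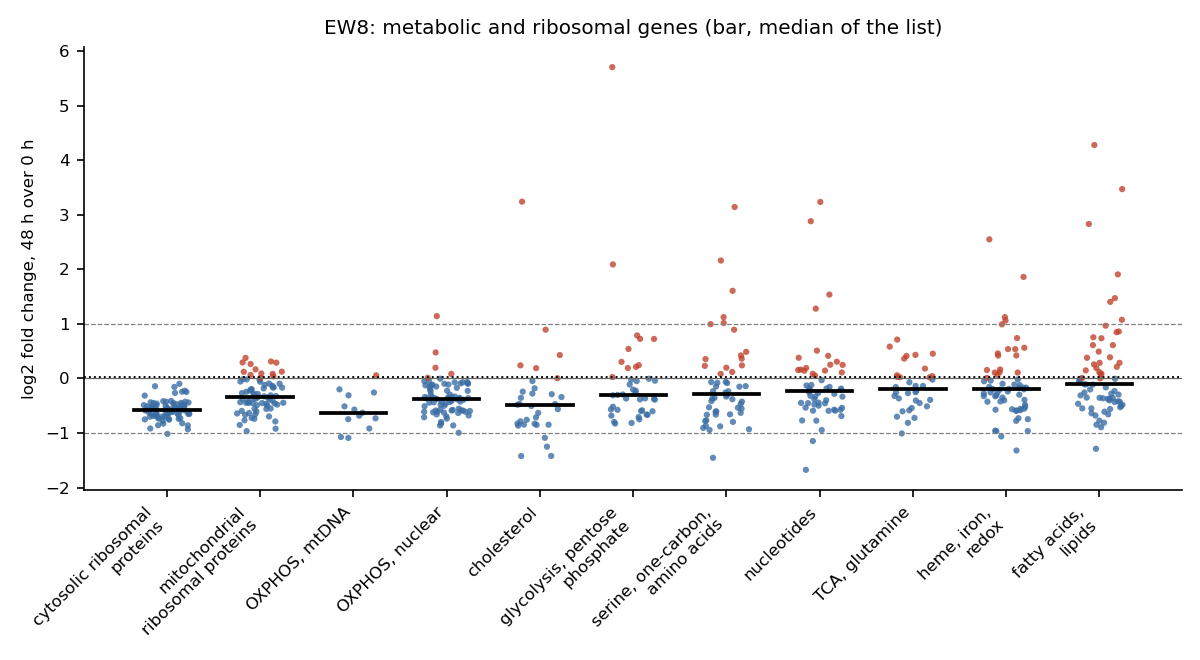
Log2 fold changes in EW8 of cytosolic and mitochondrial ribosomal protein genes and of the 9 metabolic lists, 1 point per gene (red above 0, blue below), with a bar at each list's median, a dotted line at the median of all genes (0.03) and dashed lines at a 2-fold change. All 83 cytosolic ribosomal protein genes lie below 0, and the medians run from -0.63 for subunits encoded in mitochondrial DNA to -0.11 for fatty acids and lipids, which turned to 0.02 with total counts.

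All 83 cytosolic ribosomal protein genes had negative log2 fold changes, with a median of -0.57 (-0.45 with total counts), and together they took 7.14% of counts at 0 h against 5.19% at 48 h. Only RPL7A passed both thresholds, at -1.02, and with total counts it was at -0.89 and without 48 h replicate 3 at -0.99. Mitochondrial ribosomal proteins had no call among 74, 51 of them lower by adjusted p alone, and a median of -0.33, beside 3.35% of all genes downregulated and 31.6% lower by adjusted p alone. NCL, the nucleolar protein nucleolin, lost the most CPM of all genes called. It had 4024, 3887 and 4122 CPM at 0 h and 1740, 1819 and 1712 CPM at 48 h (log2 fold change -1.19, standard error 0.03, adjusted p = 1.33e-25). NPM1, nucleophosmin, fell from 2071 ± 112 to 845 ± 32.8 CPM, HSPA8, the constitutive HSP70 chaperone, from 3198 ± 227 to 1336 ± 28.1 CPM, and RAN, the GTPase of nuclear transport, from 1913 ± 95.7 to 917 ± 18.9 CPM (SD, n = 3 each). RAN was inside 2-fold with total counts, at -0.94. The tRNA synthetases had no call among 18.

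Of the 10 called genes that gained the most CPM, EGR1 rose from 13.4 CPM and JUN from 4.52 CPM, while the other 8 had 74.6 CPM or more at 0 h. CITED2, a coactivator-binding protein, had 375, 382 and 385 CPM at 0 h and 1162, 1141 and 1195 CPM at 48 h (log2 fold change 1.61, standard error 0.04, adjusted p = 7.98e-27), and the groups were far apart. ANXA1, a phospholipid-binding annexin, rose from 264 ± 11.3 to 1027 ± 48.2 CPM, SLC3A2, the heavy chain of amino acid transporters, from 233 ± 7.66 to 691 ± 7.88 CPM, and SERPINE2, a secreted protease inhibitor, from 175 ± 7.27 to 618 ± 13.2 CPM (SD, n = 3 each). KCNE4, a potassium channel subunit, and TCF12, a basic helix-loop-helix factor, rose by log2 fold changes of 1.45 and 1.26. FRG2FP, a pseudogene of the FRG2 family with close copies elsewhere, is uncertain for that reason (log2 fold change 2.11).

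Other lists are read beside the 13.9% of all genes upregulated and the 3.35% downregulated. Extracellular matrix and protease genes were upregulated in 38 of 74 cases and downregulated in 1, with a median of 1.03. LAMB3, a laminin chain of epithelial basement membranes, had 1.36, 1.66 and 1.56 CPM at 0 h and 21.4, 18.8 and 21.1 CPM at 48 h (log2 fold change 3.74, standard error 0.12, adjusted p = 8.38e-24). COL5A3, a fibrillar collagen chain, rose from 4.07 ± 0.686 to 33.5 ± 2.37 CPM (SD, n = 3 each). The LAMB3 window (chr1:209651325-209651624, - strand) holds TGANTCA beginning 67 bases before the start, in 1 of 3 windows of the gene, and is shown as the promoter of the matrix gene with the largest rise by the rule used here.
LAMB3: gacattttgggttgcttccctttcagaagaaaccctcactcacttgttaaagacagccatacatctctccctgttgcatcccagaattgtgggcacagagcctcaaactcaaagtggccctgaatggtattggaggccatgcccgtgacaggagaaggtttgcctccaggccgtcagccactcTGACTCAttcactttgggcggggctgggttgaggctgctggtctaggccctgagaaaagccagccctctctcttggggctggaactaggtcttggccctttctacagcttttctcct

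Voltage-gated channels were upregulated in 24 of 51 cases and downregulated in 2, beside 13.9% and 3.35% of all genes, with a median of 0.76. Their median level was 3.87 CPM, and at 1 to under 10 CPM 23.2% of protein-coding genes were upregulated. SCN1A, a neuronal sodium channel, rose from 7.98 ± 0.264 to 29.1 ± 1.27 CPM (SD, n = 3 each). MAP kinase phosphatases, Sprouty proteins and mRNA decay factors, which are known to damp growth factor signaling, were upregulated in 26 of 44 cases and downregulated in 0. SPRY4, a Sprouty protein, had 8.63, 6.76 and 8.20 CPM at 0 h and 91.6, 87.8 and 91.6 CPM at 48 h. Interferon-stimulated genes were upregulated in 22 of 50 cases and downregulated in 0, while 36 were higher and 6 lower by adjusted p alone. IFIT2, which binds RNA, had 5.08, 5.33 and 5.34 CPM at 0 h and 96.5, 96.2 and 104 CPM at 48 h (log2 fold change 4.23, standard error 0.07, adjusted p = 4.33e-31). Of 49 cytoskeletal genes 13 were upregulated and 2 downregulated, among them ACTA2, smooth muscle actin, at 2.07 and TPM1, a tropomyosin, at -1.35.

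Cell cycle lists are also read beside the shares of 13.9% and 3.35% of all genes. Of 55 replication fork and licensing genes 1 was upregulated and 1 downregulated, with a median of -0.11 that turned to 0.01 with total counts. PCNA, the sliding clamp, had 485, 464 and 497 CPM at 0 h and 241, 249 and 232 CPM at 48 h, a log2 fold change of -1.0 that became -0.88 with total counts and -0.98 without 48 h replicate 3. Of 77 genes of G2 and mitosis 2 were upregulated and 4 downregulated. CDC20, an activator of the anaphase-promoting complex, had 287, 300 and 292 CPM at 0 h and 105, 102 and 103 CPM at 48 h (log2 fold change -1.5, standard error 0.04, adjusted p = 2.78e-25), while KIF18A, a mitotic kinesin, rose by 1.41 on the log2 scale. Of 16 cyclins and CDK inhibitors of G1 4 were upregulated, CDKN1A, CDKN2B, CDKN2D and CDK6, and 0 downregulated, while 10 were higher and 3 lower by adjusted p alone. CDKN1A, the CDK inhibitor p21, had 10.0, 12.3 and 10.7 CPM at 0 h and 117, 113 and 116 CPM at 48 h (log2 fold change 3.40, standard error 0.08). SLITRK5, a neuronal membrane protein, fell from 29.6 ± 0.839 to 8.03 ± 0.566 CPM, PSRC1, a spindle protein, from 44.5 ± 1.06 to 12.3 ± 0.893 CPM, and MIR17HG, the host transcript of a microRNA cluster, from 7.98 ± 0.674 to 2.22 ± 0.479 CPM (SD, n = 3 each).

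**Figure D5:**
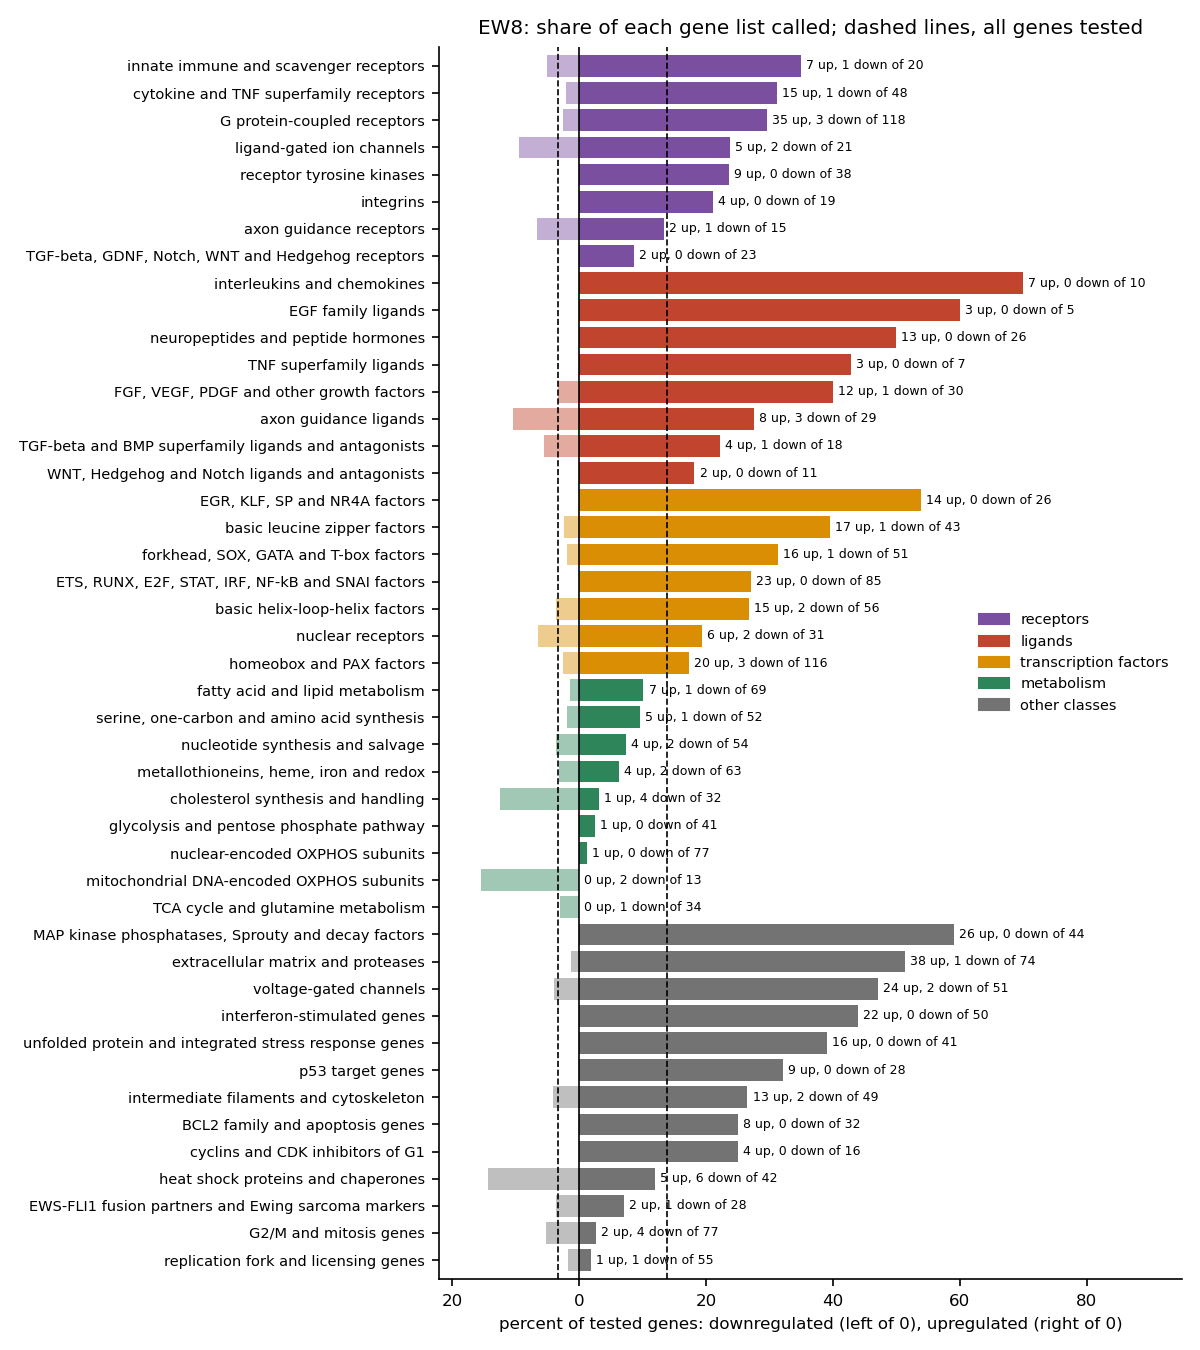
Bars give the percent of tested genes of each list that were upregulated (right of 0) or downregulated (left, pale) in EW8, colored by class, with dashed lines at 13.9% and 3.35% for all genes. Interleukins and chemokines reach farthest to the right (7 of the 10 tested among 100 listed, 3 of the 7 at 3 counts or fewer in every 0 h library), and the metabolic lists all end left of the line for upregulated genes.

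By annotation, long noncoding RNAs and protein-coding genes differed in their shares, and the order of the upregulated shares changed with level. Of 1711 long noncoding RNAs tested, 384 (22.4%) were upregulated and 129 (7.54%) downregulated, against 1641 (12.8%) and 293 (2.28%) of 12850 protein-coding genes. At 0.1 to under 1 CPM 24.0% of long noncoding and 37.2% of protein-coding genes were upregulated and 9.41% and 5.82% downregulated. At 1 to under 10 CPM the shares were 20.9% and 23.2% upregulated and 5.89% and 2.97% downregulated, and at 10 to under 100 CPM 20.6% and 7.74% upregulated and 2.94% and 1.77% downregulated. LINC00659 had 3.28, 4.01 and 3.42 CPM at 0 h and 91.1, 87.8 and 98.7 CPM at 48 h (log2 fold change 4.71, standard error 0.08, adjusted p = 4.33e-31). Zinc finger genes with ZNF symbols were upregulated in 74 of 430 cases (17.2%) and downregulated in 5, with a median of 0.34. LIPH and APOH, a lipase and a plasma glycoprotein, rose from 0.834 ± 0.116 to 22.8 ± 0.908 CPM and from 1.12 ± 0.339 to 30.9 ± 2.68 CPM (SD, n = 3 each), and BEST1, a chloride channel whose exons overlap FTH1, rose by 4.45 on the log2 scale.

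The difference between the responses of the lines, EW8 minus TC71, was tested with the same thresholds. Its sign does not say which line moved more. Over all genes 1364 (8.26%) differed, of which 1202 (7.28%) responded higher in EW8 and 162 (0.981%) lower, as shares of those tested. Among the 302 receptors 33 were higher and 4 lower, among the 136 ligands 30 and 2, among the 408 transcription factors 47 and 4, and among the 435 metabolic genes 11 and 3. CELSR3 differed by 2.10 on the log2 scale (standard error 0.13, adjusted p = 2.82e-13) and PAX3 by 1.12 (standard error 0.08, adjusted p = 9.99e-14). PCNA, lower in EW8, had a log2 fold change of 0.37 in TC71, and the lines differed by -1.38 (standard error 0.05, adjusted p = 1.04e-19). Of the switched-on genes, CREB5 had no count in TC71 at 0 h and averaged 9.67 counts at 48 h, while CXCL8 averaged 14 counts there at 0 h and 141 at 48 h.

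Values of some genes above may hold reads of a neighbor. Exons of DDIT3, BEST1, SLITRK5, MIR17HG, CELSR3, TNFRSF12A, IL2RG, FAS, RIGI, LRP8, UNC5C, CCN2, EFNA4, SEMA4G, ADM2, ISL2, MXD1, TWIST1, AHR, NR4A1, VDR, THRA, GATA2, IDH1, PTGS2, HMGCS1, SAT1, MAT2A, RRM1, MT-ATP8, MT-ATP6, TFRC, IGF1, CDKN1A, CDK6, HSPA8, IFIT2, LAMB3, COL5A3, ACTA2, TPM1, SCN1A, FAP, COL1A1, FRG2FP, NCL, RPL7A and SPOCD1 share bases with an exon of another annotated gene on either strand, and the rule by which shared reads were counted is not given in the sources used here. The low-count genes CSF1R, HBEGF, VGF, IL2RB, UPP1, NT5E, CDA, NME2, HKDC1, NDUFA13, CYP46A1, CDKN2B and PTGDR2, as well as SQLE, were named after their values were seen.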

How the data were processed

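RNA was extracted from cultures of the EW8 and TC71 knockout lines with RNeasy Plus kits, and libraries made with a stranded TruSeq protocol from polyadenylated RNA were sequenced as 100 bp paired-end reads on an Illumina NovaSeq instrument. The authors' deposited table holds raw read counts per gene for 12 libraries, and the submitters' processing notes name FastQC, STAR and hg38. The counting tool, its annotation and its strand setting are not given in the sources used here. The table lists 20771 genes, the least abundant with 21 counts in all, and 19943 matched GENCODE 44 by identifier.

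Counts were fitted with edgeR 4.0.16 (robust quasi-likelihood, TMM normalization, R 4.3.3) on all 12 libraries in 4 groups, so that both lines share an estimate of spread, a biological coefficient of variation of 4.17%. Genes entered by filterByExpr with a minimum count of 10 and a minimum total of 15. The difference between the lines was the interaction term. Upregulated and downregulated genes had a fold change above 2 and a Benjamini-Hochberg adjusted p below 0.05 over all genes tested, and every adjusted p printed comes from this fit. A floor of 3 counts per library stood for no expression, and intervals at 95% cover counting error only. Scripts were tested on simulated data.

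Classes were built from 49 lists with 2938 gene entries. Members and lists were chosen with earlier results of these data known. Named genes were the 10 largest rises and 10 largest falls with groups that do not overlap and a lower group averaging at least 20 counts, the 3 largest in each direction of each list under the same conditions, the 10 switched-on genes highest at 48 h, the 10 that gained and the 10 that lost the most CPM, and the subunits of ribonucleotide reductase. Most other names are marked. The remaining switched-on genes, and some markers of Ewing sarcoma and of other cell types, were named outside these rules. Some genes that met the rule are not reported here. Alternatives were other scalings, filters and thresholds, DESeq2 1.42.0, EW8 fitted alone, a replicate block and leaving out each library. Promoter windows come from RefSeq, and 11237 of 16510 tested symbols had one.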

Additional observations from a re-analysis of the deposited data

Results flagged for a closer look

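The 10 genes with the largest rises and the 10 with the largest falls in EW8 were compared with TC71 as the difference between the responses of the lines, and 16 of the 20 differed by more than 2-fold with an adjusted p below 0.05 in the edgeR quasi-likelihood test. These genes were chosen for the size of their change in EW8, which favors a larger change there. Among those that rose, the difference on the log2 scale, EW8 minus TC71, was 2.11 for JUN, 1.46 for EGR1, 2.46 for DDIT3 and 1.52 for ATF3. It was 2.42 for LIPH, 2.02 for APOH, 2.56 for LINC00659, 2.78 for DLX2 and 2.33 for BEST1. Among those that fell it was -1.09 for TRDMT1, -1.14 for SAPCD2, -1.62 for ASPRV1 and -1.51 for HMX2. It was -1.07 for SLITRK5, -1.31 for DPH6 and -1.59 for FDXACB1. With total counts SLITRK5 differed by -1.0 and was short of the fold threshold. Exons of DDIT3, BEST1, TRDMT1, SAPCD2, ASPRV1, SLITRK5, DPH6 and FDXACB1 share bases with an exon of another annotated gene, so their values may hold reads of a neighbor.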

How the results depend on the processing

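Of 170 named genes followed, 134 stayed on the same side of the thresholds under every alternative run, 36 fell short under at least 1, and none reversed. With the fold threshold inside the test, 1362 genes were upregulated and 126 downregulated, with 52 and 3 receptors, 1 downregulated ligand, 3 downregulated transcription factors, and 13 and 7 metabolic genes. Requiring at least 10 counts in every EW8 library gave 1276 and 317 genes, 42 and 4 receptors, 27 upregulated ligands and 14 upregulated metabolic genes, with fewer genes tested. Total counts alone left 345 downregulated genes, 4 of them transcription factors and 8 metabolic. With no fold threshold the counts were 6103 and 5226 for all genes, 158 and 59 for receptors, 84 and 20 for ligands, 229 and 87 for transcription factors, and 77 and 270 for metabolism. With 1 count or fewer at 0 h 10 genes were switched on, with 10 or fewer 107, and with 50 or more at 48 h 5, while 7 were turned off with 10 or fewer. Leaving out 1 library at a time gave 2233 to 2350 genes upregulated and 566 to 641 downregulated, 6 to 9 ligands downregulated, 23 to 37 genes switched on and 0 to 1 turned off. For switched-on genes the limits are raw counts, so the depth of a library moves them.

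Same-numbered libraries did not deviate together, with correlations of their deviations from the group means of -0.04, -0.05 and -0.01, so the numbers were not taken as pairs. With the replicate number as a block, 2290 genes were upregulated and 566 downregulated, and the counts of receptors (79 and 8), ligands (52 and 5), transcription factors (111 and 9) and metabolic genes (23 and 13) were as without it.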

Other observations

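Gene groups defined by annotation rather than by function also differed in EW8. Of 220 tested genes with LINC symbols, which are long intergenic noncoding RNAs, 75 (34.1%) were upregulated and 8 downregulated, with a median log2 fold change of 0.58, and of 446 antisense RNAs 94 (21.1%) were upregulated and 29 downregulated, beside 13.9% and 3.35% of all genes. Antisense RNAs had a median level of 0.918 CPM, and at 0.1 to under 1 CPM 26.0% of all genes were upregulated and 8.09% downregulated. Solute carriers, the membrane transporters of nutrients and ions, lay near those shares, with 39 of 261 (14.9%) upregulated and 9 downregulated. Subunits of the proteasome, which degrades tagged proteins, had 1 upregulated gene and none downregulated among 39, while 29 were lower by adjusted p alone.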
